A study of Homo sapiens with 6 samples.

Results

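The genes described here are 43 genes of the interferon response: interferon-stimulated genes, the signal transducer STAT2 and 5 interferon regulatory factors (IRFs). They were listed by symbol, leaving out HLA, guanylate-binding protein and proteasome genes, and every probe of the array that carries such a symbol was taken. That gave 62 of the 47231 probes and 42 of the 43 genes, out of 20046 genes with a uniquely named probe. STAT2 had no such probe and was not analysed here, so that the results on the transcription factors are results on IRFs. SK-Hep1, an established human line labelled as hepatic adenocarcinoma cells, had been transfected with siRNA against YAP1 and TAZ (3 samples, here called knockdown) or with a control siRNA labelled siLuc (3 samples). RNA from day 3 after transfection was hybridised to 1-colour Illumina bead arrays, 1 per sample. Both groups therefore carried transfected siRNA, and an untransfected group was not analysed here. The labels do not say whether samples of a group were separate cultures, so the p-values below rest on the variation among these arrays alone, and that may be technical.

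Interferons are secreted signalling proteins, and those of type I are released by cells on sensing foreign nucleic acid. Type I interferons bind the IFNAR1 and IFNAR2 receptor chains, whose JAK kinases activate STAT proteins. STAT2 joins IRF9 in the complex ISGF3, which binds the interferon-stimulated response element (ISRE) in front of many antiviral genes. Several of the induced proteins are themselves sensors or signal carriers of the pathway, such as RIGI, IFIH1 and IRF7, and others, such as USP18, dampen it. YAP1 and TAZ are transcriptional co-activators of the Hippo pathway.

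Promoter sequences were available for 33 of the members (RefSeq, GRCh38.p14, from 250 bases before to 50 after the start of the gene), and they are given first because the ISRE is the feature these genes are known for. Its core was taken as GAAA and GAAA separated by NN, or TTTC and TTTC separated by NN for the other strand, with N standing for any base. The stretches below belong to 3 members that rose after knockdown and 3 that did not. All of them hold the core, which a part of the member promoters lacks, as counted below. Those that rose are IFIT3 (chr10:89327747-89328046, plus strand), BST2 (chr19:17405581-17405880, minus strand) and IFI6 (chr1:27672143-27672442, minus strand). Those that did not are OAS3 (chr12:112938224-112938523, plus strand), HERC5 (chr4:88456869-88457168, plus strand) and EIF2AK2 (chr2:37156931-37157230, minus strand). Each runs 5′ to 3′ on the strand of its gene, and capitals mark the core, with overlapping matches as a single run.
IFIT3: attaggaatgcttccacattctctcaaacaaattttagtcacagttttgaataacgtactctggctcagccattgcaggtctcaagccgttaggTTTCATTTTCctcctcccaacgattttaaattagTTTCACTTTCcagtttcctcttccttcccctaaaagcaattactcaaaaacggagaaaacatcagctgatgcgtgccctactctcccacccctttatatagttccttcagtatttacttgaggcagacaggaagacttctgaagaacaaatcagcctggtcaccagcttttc
BST2: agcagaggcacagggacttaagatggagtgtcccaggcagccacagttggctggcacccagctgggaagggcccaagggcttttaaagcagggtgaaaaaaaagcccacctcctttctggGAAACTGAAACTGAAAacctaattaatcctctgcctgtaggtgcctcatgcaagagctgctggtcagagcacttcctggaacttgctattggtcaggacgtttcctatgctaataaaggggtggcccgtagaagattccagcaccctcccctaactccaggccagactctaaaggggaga
IFI6: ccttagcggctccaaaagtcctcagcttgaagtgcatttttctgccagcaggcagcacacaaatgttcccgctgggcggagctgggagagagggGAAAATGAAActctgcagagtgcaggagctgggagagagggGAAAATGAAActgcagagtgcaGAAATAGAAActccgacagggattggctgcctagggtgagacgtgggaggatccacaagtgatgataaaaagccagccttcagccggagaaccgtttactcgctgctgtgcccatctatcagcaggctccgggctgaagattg
OAS3: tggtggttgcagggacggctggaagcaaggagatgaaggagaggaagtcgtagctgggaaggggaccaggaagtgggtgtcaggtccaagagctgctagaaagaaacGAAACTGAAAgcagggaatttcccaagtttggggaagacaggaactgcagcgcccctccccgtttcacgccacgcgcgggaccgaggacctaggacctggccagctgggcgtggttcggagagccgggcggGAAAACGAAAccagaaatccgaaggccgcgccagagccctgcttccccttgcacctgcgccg
HERC5: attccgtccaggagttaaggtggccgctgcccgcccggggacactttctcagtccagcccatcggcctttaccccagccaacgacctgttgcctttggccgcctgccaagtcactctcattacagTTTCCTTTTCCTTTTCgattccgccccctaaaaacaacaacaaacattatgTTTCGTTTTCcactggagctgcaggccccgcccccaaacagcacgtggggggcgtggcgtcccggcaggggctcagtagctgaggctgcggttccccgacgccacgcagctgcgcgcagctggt
EIF2AK2: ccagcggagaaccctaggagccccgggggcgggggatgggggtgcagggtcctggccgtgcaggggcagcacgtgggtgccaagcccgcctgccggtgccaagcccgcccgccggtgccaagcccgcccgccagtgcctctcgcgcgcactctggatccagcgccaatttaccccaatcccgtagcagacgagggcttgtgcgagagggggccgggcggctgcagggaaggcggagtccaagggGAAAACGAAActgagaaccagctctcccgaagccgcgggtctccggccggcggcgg
The core was present in 20 of the 33 member promoters (60.6%), against 3.65% of all 27305 promoters in the table and 2.84% of the 8005 that belong to genes detected here. It stood in 11 of the 19 members that rose and in 4 of the 6 that were tested and did not rise. With a spacer of NNN or of a single N also allowed, the counts were 14 of 19 and 5 of 6, against 8.84% of all promoters. The gamma-activated sequence TTCNNNGAA, which reads the same on both strands, was found in 6 of the 19 members that rose, among them IRF1 and IRF9, and in 0 of the 6 that were tested and did not rise. It was also found in 2 of the 8 members that were not tested. It stood in 7.88% of all promoters and 6.26% of those of detected genes. A match is a run of letters in this window and not a measured binding site, and the members were listed as interferon-stimulated in the first place.

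The arrays had median bead intensities of 62.2 to 82.95, with 13849 to 17017 probes detected on each. Detection was judged against the background of each array, at thresholds of 113.8, 80.1 and 125.1 on the controls. On the knockdown arrays they were 75.6, 98.0 and 76.9. A probe of similar intensity can therefore be below background on a control array and above it on a knockdown array. Testing covered 16091 probes, those detected on 3 arrays or more, which stand for 9802 named genes. Across these probes replicates correlated at r of 0.990 to 0.995 within a group and 0.933 to 0.945 between groups. YAP1 was 5.32-fold lower after knockdown (normalised log2 intensity 10.75, 10.83 and 10.76 in the controls against 8.40, 8.31 and 8.40, limma adjusted p = 2.43e-08). WWTR1, the gene of TAZ, was at least 2.38-fold lower, being below detection on all 3 knockdown arrays (adjusted p = 6.94e-07). Of 9 hepatocyte markers with a probe, 7 were below detection on every array, while SERPINA1 was 2.83-fold higher and ALB 1.40-fold lower after knockdown (limma adjusted p = 6.42e-07 and 0.00478). The 9 summed to deposited intensities of 1052 to 1185 on control and 1525 to 1678 on knockdown arrays, and their part in the results below was not tested. All 9 endothelial markers and all 4 markers of plasmacytoid dendritic cells, a main interferon-producing cell, were below detection on every array.

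Of the 42 genes with a probe, 33 passed the detection filter, and 26 of them were detected on all 6 arrays. Most rose. In the limma test with Benjamini-Hochberg adjustment over all tested probes, 26 of the 33 were higher after knockdown, 1 was lower and 6 did not pass an adjusted p of 0.05, where 27.2% of all tested genes were higher and 27.3% lower (54.5% in either direction). The median log2 change of the 33 was 0.71, beside 0.0012 over all 9802 tested genes. Rises of 2-fold or more were seen in 10 members, where 5.07% of all tested genes rose and 5.51% fell that far. The 3 knockdown arrays lay wholly above the 3 control arrays for 27 members, against 30.8% of all tested genes, and wholly below for EIF2AK2, against 31.4%. RIGI passed the filter through the knockdown arrays alone, so counts under other filters are set beside these. Among the 26 members detected on all 6 arrays, 21 rose and 1 fell, where 27.5% and 28.7% of such genes did. With no filter, which lets in genes below background in a whole group, 25 of 42 members rose and 17 did not pass, where 10.8% of all 20046 genes rose and 10.3% fell. MX1, which failed the filter, was among these 25, and PARP14 and TRIM21 were not.

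**Figure D1:**
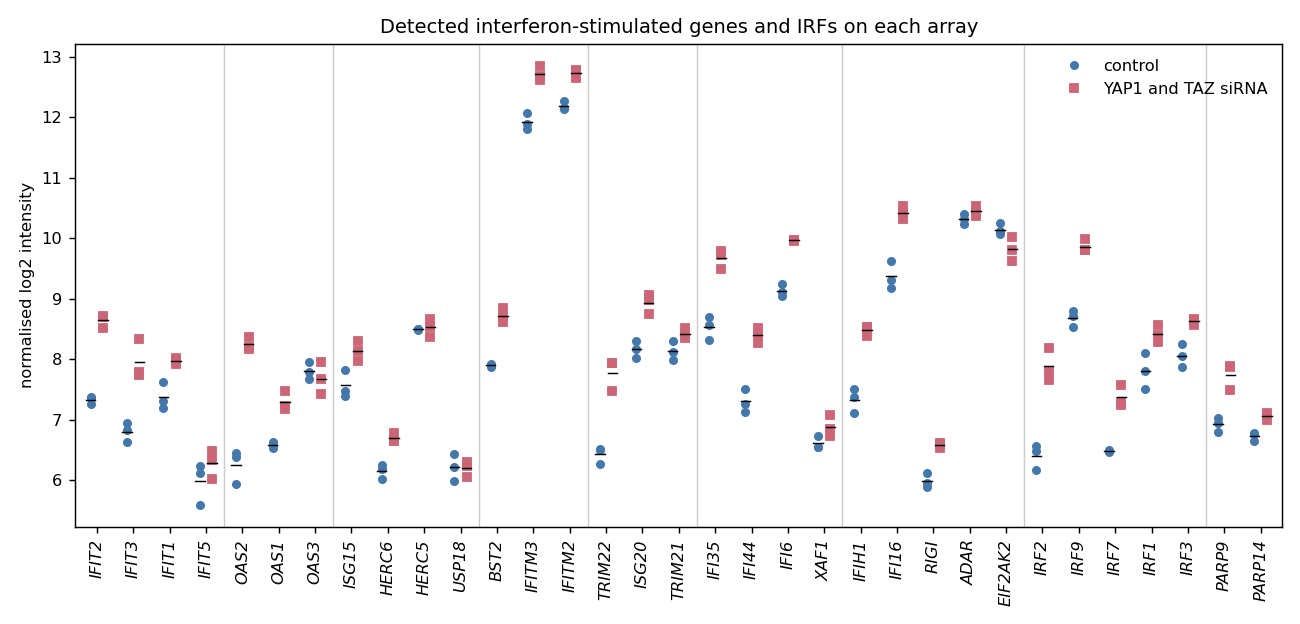
Normalised log2 intensity of the 33 detected genes on each of the 6 arrays, grouped by role, with circles for the 3 control arrays, squares for the 3 knockdown arrays and a bar at each group mean. The squares lie wholly above the circles for 27 of the 33 genes. Probes differ in brightness, so heights compare arrays within a gene and not genes with each other.

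**Figure D2:**
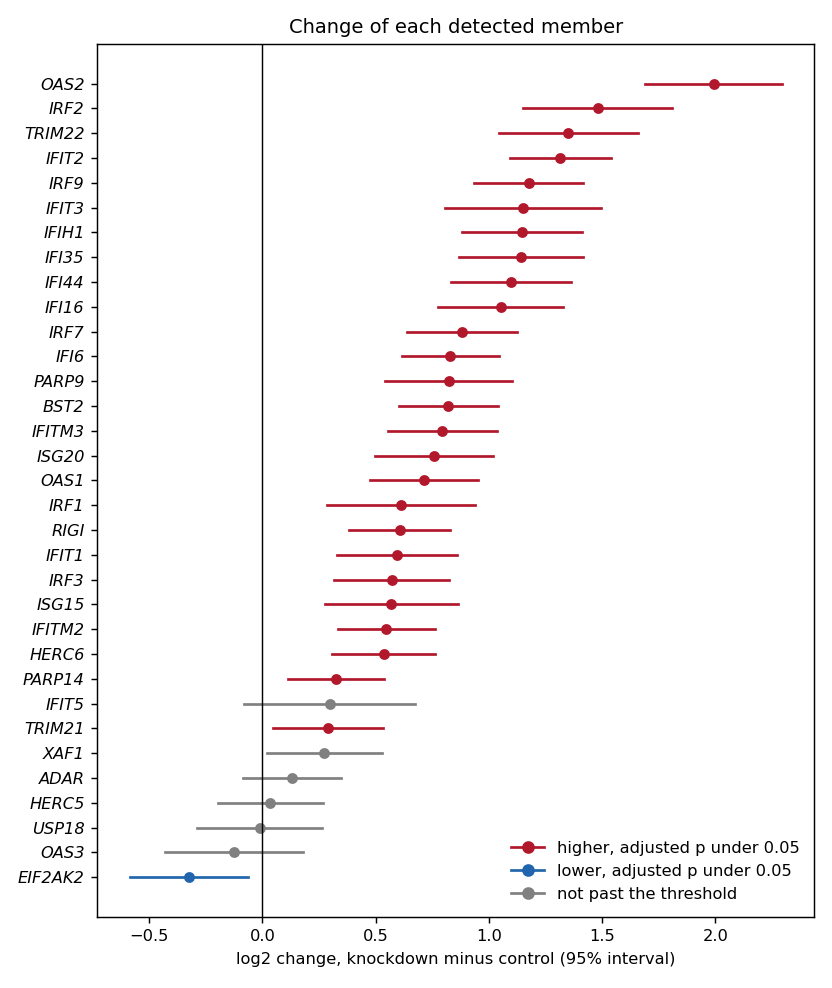
Log2 change of each detected gene, knockdown minus control, with its 95% interval from the limma fit. OAS2 is at the top at 1.99 and EIF2AK2 at the bottom at -0.32, and the 6 grey genes did not pass the threshold. RIGI, below detection on all control arrays, is drawn at its fitted change, which is not a bound.

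These are bulk samples, so more cells expressing a gene and more RNA per cell cannot be told apart. The rise was seen on each knockdown array. Relative to the control mean of each gene, the median of the 33 members was 0.76, 0.60 and 0.75 on knockdown arrays 1 to 3, and between -0.02 and 0.01 on the controls. The SD of the knockdown values was 0.0901.

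The IRFs are DNA-binding factors of the pathway, and all 5 rose. IRF9, the DNA-binding subunit of ISGF3, read 8.80, 8.53 and 8.72 in the controls and 9.80, 9.98 and 9.80 after knockdown. Every knockdown array was above every control array, and the means of 8.69 ± 0.141 and 9.86 ± 0.104 (SD, n = 3 each) differed 2.26-fold (log2 change 1.18 ± 0.109 SE, limma adjusted p = 6.29e-06). IRF7, which amplifies interferon production, read 6.50, 6.47 and 6.48 against 7.57, 7.30 and 7.24. Its controls lay close together, on 2 of 3 arrays above background, and it rose 1.84-fold (log2 change 0.88 ± 0.11 SE, limma adjusted p = 5.59e-05). Another IRF7 probe, below background on all control arrays and above it on all knockdown arrays, was at least 1.59-fold higher, having entered the test through the knockdown arrays alone.

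IRF2, known as an antagonist of IRF1 at shared sites, read 6.48, 6.17 and 6.56 in the controls and 7.65, 8.19 and 7.81 after knockdown. This was a 2.79-fold rise without overlap (log2 change 1.48 ± 0.15 SE, limma adjusted p = 1.23e-05), but the other IRF2 probe gave 0.65 ± 0.0938. The direction was therefore shared by both probes and the size was not. IRF1, an activator induced by interferon gamma in particular, read 7.51, 7.80 and 8.11 against 8.40, 8.28 and 8.57. The groups did not overlap, although control replicate 3 came near the lowest knockdown array, and the rise was 1.53-fold (log2 change 0.61 ± 0.148 SE, limma adjusted p = 0.00491). IRF3, a factor activated downstream of the sensors, read 8.05, 8.25 and 7.87 against 8.65, 8.56 and 8.67, a 1.48-fold rise (log2 change 0.57 ± 0.114 SE, limma adjusted p = 0.00157). With arrays scaled to a common median in place of quantile normalisation, its change was 0.42, beside a median of all genes of -0.106, and no longer passed (adjusted p = 0.0666).

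Among the nucleic acid sensors on the member list, IFIH1, RIGI and IFI16 rose and EIF2AK2 fell. CGAS, a sensor outside that list, also fell, as given below. IFIH1, or MDA5, which recognises long double-stranded RNA, read 7.10, 7.37 and 7.51 in the controls and 8.53, 8.38 and 8.53 after knockdown. All 3 knockdown arrays were higher, by 2.21-fold on the means (log2 change 1.15 ± 0.12 SE, limma adjusted p = 1.57e-05). RIGI, which recognises RNA with a 5′ triphosphate, read 6.11, 5.95 and 5.88 against 6.54, 6.62 and 6.60. It was below background on all control arrays and above it on all knockdown arrays, so the rise is stated as at least 1.23-fold (limma adjusted p = 0.000451). Its deposited intensities of 102.3, 74.7 and 93.1 against 99.8, 111.6 and 108.4 were each judged by the threshold of their own array. IFI16, a sensor of DNA, read 9.62, 9.31 and 9.18 against 10.53, 10.42 and 10.31, a 2.07-fold rise without overlap (limma adjusted p = 4.12e-05).

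EIF2AK2, or PKR, was the member that fell. This kinase shuts down translation on binding double-stranded RNA. It read 10.06, 10.11 and 10.24 in the controls and 10.02, 9.80 and 9.62 after knockdown, so that the groups stood apart by the gap between control replicate 1 and knockdown replicate 1. The fall was 1.25-fold (log2 change -0.32 ± 0.119 SE, limma adjusted p = 0.0394). The call was lost without control replicate 1, 2 or 3 or knockdown replicate 2 or 3, where the change ran from -0.36 to -0.23 and the adjusted p from 0.0521 to 0.167, and it was also lost with no detection filter (adjusted p = 0.169) and with replicate number as a block (adjusted p = 0.0675). Under median scaling the change was -0.55 (adjusted p = 0.013), beside a median of all genes of -0.106. ADAR, which edits adenosines in double-stranded RNA, read 10.24, 10.32 and 10.40 against 10.37, 10.53 and 10.46. These groups overlapped, and the change of 0.13 (95% interval -0.09 to 0.35, limma adjusted p = 0.294) did not pass, whereas another ADAR probe gave 0.52 ± 0.153 (limma adjusted p = 0.014).

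The OAS enzymes make 2′-5′ oligoadenylates, which activate an antiviral RNase, and they did not move together. OAS2 read 6.38, 6.44 and 5.94 in the controls and 8.20, 8.36 and 8.17 after knockdown, with the deposited intensities going from 95.4 to 119 up to 272 to 294. This was the largest rise among the 33 tested members, 3.98-fold (log2 change 1.99 ± 0.137 SE, limma adjusted p = 6.59e-07), with 2 of 3 control arrays above background. Of the other OAS2 probes, a probe above background on 1 control array and all knockdown arrays gave a log2 change of 0.89, past the threshold. A probe below background on all control arrays was at least 1.07-fold higher. OAS1 read 6.53, 6.58 and 6.63 against 7.48, 7.18 and 7.23, without overlap, and rose 1.64-fold (limma adjusted p = 0.000235). Its other probes gave a log2 change of 0.33 against 0.71 and, where all control arrays were below background, a rise of at least 1.69-fold.

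OAS3 lies between OAS1 and OAS2 on chromosome 12, and its promoter is printed above with its pair of ISRE cores. It read 7.95, 7.68 and 7.79 in the controls and 7.42, 7.95 and 7.67 after knockdown, with overlapping groups (log2 change -0.13, 95% interval -0.43 to 0.18, limma adjusted p = 0.475). The change in OAS1 exceeded that in OAS3 by 0.84 and the change in OAS2 by 2.12 on the log2 scale, each with no overlap between arrays of the groups. In exact two-sided permutation tests over arrays both gave p = 0.1, the smallest that 3 against 3 allows (0.133 adjusted over the 4 pairs of neighbouring genes compared). In each of the 4 pairs, here and below, 1 gene had risen past the threshold and the other had not. The neighbours IFIT2 and IFIT3, which both rose, were not compared. These tests are therefore not independent of the calls and add no support to them. The fourth OAS gene, OASL, was not detected on any array.

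IFIT proteins bind viral RNA and block its translation, and their genes lie side by side on chromosome 10. IFIT2 read 7.37, 7.36 and 7.26 in the controls and 8.51, 8.72 and 8.70 after knockdown. The groups lay far apart relative to their SDs of 0.062 and 0.115, with a 2.49-fold rise (log2 change 1.32 ± 0.102 SE, limma adjusted p = 1.54e-06). IFIT3 read 6.63, 6.95 and 6.83 against 7.74, 8.33 and 7.79, a 2.22-fold rise (limma adjusted p = 0.000109), with 0.85 and 0.72 for its other probes against 1.15. The probe at 0.85 was above background on only 1 control array. IFIT1 rose less, 1.51-fold, from 7.38 ± 0.221 to 7.97 ± 0.0522 (SD, n = 3 each, limma adjusted p = 0.00166). IFIT5, detected on 1 control and 2 knockdown arrays, overlapped between groups at 5.59 to 6.24 and 6.02 to 6.49 (log2 change 0.30, 95% interval -0.08 to 0.67, limma adjusted p = 0.171). The changes of IFIT1 and IFIT5 differed by 0.30 (exact two-sided permutation p = 0.3, and 0.3 adjusted over the 4 pairs).

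ISG15 is a ubiquitin-like protein that is attached to other proteins, and USP18 removes it and restrains the type I receptor. ISG15 read 7.83, 7.40 and 7.47 in the controls and 8.29, 8.14 and 7.97 after knockdown. The highest control lay just below the lowest knockdown array, and the rise was 1.48-fold (log2 change 0.57 ± 0.133 SE, limma adjusted p = 0.00409). HERC6, a ligase-family member known to attach ISG15 in the mouse, rose 1.45-fold (limma adjusted p = 0.0012), above background on 1 control array and on all 3 knockdown arrays. HERC5, the main ISG15 ligase in human cells, did not pass, at 8.49, 8.50 and 8.48 against 8.67, 8.37 and 8.54 (95% interval of the log2 change -0.19 to 0.27). HERC6 and HERC5 are neighbours on chromosome 4, and their changes differed by 0.50 with no overlap between arrays (exact two-sided permutation p = 0.1, and 0.133 adjusted over the 4 pairs). USP18 was near background and did not pass (log2 change -0.01, 95% interval -0.29 to 0.26).

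Membrane proteins that stop virus entry or release rose. BST2, or tetherin, which holds budding virus on the cell surface, read 7.90, 7.92 and 7.88 in the controls and 8.70, 8.61 and 8.84 after knockdown. The controls were nearly identical, and the rise was 1.77-fold (log2 change 0.82 ± 0.0995 SE, limma adjusted p = 4.57e-05). IFITM3 and IFITM2, which block virus fusion, rose 1.73-fold and 1.46-fold (limma adjusted p = 0.00012 and 0.000672). They are close paralogs, and how far their probes read each other was not tested. Scaled to a common median, IFITM2 had a log2 change of 0.45 and no longer passed (adjusted p = 0.0511). The single IFITM1 probe was below background on every array.

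Of the other antiviral effectors, TRIM22, a ubiquitin ligase that restricts several viruses, read 6.27, 6.50 and 6.52 in the controls and 7.47, 7.94 and 7.93 after knockdown. The lowest knockdown array was well above the highest control, and the rise was 2.55-fold (log2 change 1.35 ± 0.14 SE, limma adjusted p = 1.43e-05). ISG20, an exonuclease, rose 1.69-fold, from 8.17 ± 0.141 to 8.92 ± 0.166 (SD, n = 3 each, limma adjusted p = 0.000286). TRIM21, a cytosolic antibody receptor, was 1.22-fold higher (log2 change 0.29, limma adjusted p = 0.0476). TRIM21 no longer passed without control replicate 1 or 3 or knockdown replicate 1 or 3 (log2 change 0.21 to 0.30, adjusted p from 0.0799 to 0.161), with replicate number as a block (adjusted p = 0.0827), under median scaling (log2 change 0.15, adjusted p = 0.581) and with no detection filter (adjusted p = 0.206).

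The IFI genes have mixed functions. IFI35, a partner of other interferon-induced proteins, read 8.33, 8.56 and 8.69 in the controls and 9.73, 9.49 and 9.79 after knockdown. IFI44, a cytoplasmic antiviral protein, read 7.51, 7.27 and 7.13 against 8.41, 8.52 and 8.27. Neither gene overlapped between groups, with rises of 2.21-fold and 2.14-fold (limma adjusted p = 2.09e-05 and 2.28e-05). IFI6, a small membrane protein with 3 ISRE cores in the promoter printed above, read 9.12, 9.04 and 9.24 against 9.95, 9.97 and 9.97. Its knockdown arrays agreed to an SD of 0.0119, and it rose 1.78-fold (limma adjusted p = 3.56e-05), with 0.73 for the other probe against 0.83. XAF1, a pro-apoptotic factor, did not pass on either of its probes, at log2 changes of 0.27 and -0.23 (limma adjusted p = 0.0666 and 0.192).

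PARP9 forms a complex with the ubiquitin ligase DTX3L, and PARP14 is a related ADP-ribosyltransferase. PARP9 read 6.79, 6.94 and 7.03 in the controls and 7.87, 7.49 and 7.88 after knockdown, without overlap. It rose 1.77-fold (log2 change 0.82 ± 0.127 SE, limma adjusted p = 0.00026), with 1.06 for its other probe. PARP14 was 1.25-fold higher (log2 change 0.33, limma adjusted p = 0.0146). The PARP14 call was lost under median scaling (log2 change 0.28, adjusted p = 0.259), with no detection filter (adjusted p = 0.11) and without control replicate 1 (log2 change 0.29, adjusted p = 0.0563).

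**Figure D3:**
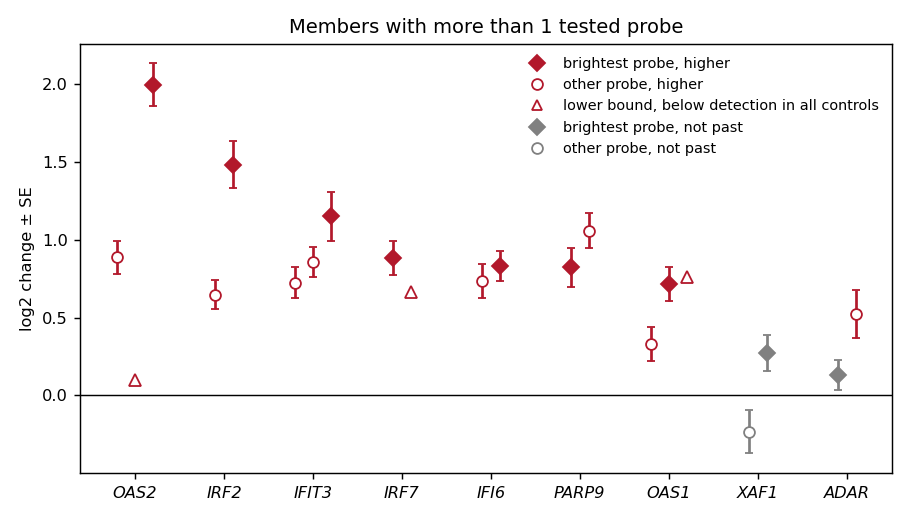
Log2 change ± SE of every tested probe of the 9 genes with more than 1 tested probe, with diamonds for the brightest probe of a gene, which stands for it in the counts, and circles for the others. Triangles are lower bounds, without SE, for the probes of OAS1, OAS2 and IRF7 below detection on all control arrays. The probes of OAS2 detected on 1 and on 2 control arrays lie at 0.89 and 1.99, whereas the probes of XAF1 lie on both sides of 0 without passing.

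Of the 9 genes with more than 1 tested probe, 7 were higher on every probe, ADAR passed on the dimmer of its probes and XAF1 passed on none. The matching share over all genes with several tested probes was not computed, so the 7 cannot be set against it. For OAS1, OAS2 and IRF7 this includes a probe that was detected on knockdown arrays alone and so entered the test through them, which favours a rise. A further OAS2 probe and an IFIT3 probe were detected on 1 control array and on all 3 knockdown arrays. Counted by probe, 37 of 45 tested member probes rose and 1 fell, where 26.4% and 25.5% of all tested probes did. Of the 37, 33 were detected on a control array as well, the other 4 being those probes and that of RIGI.

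The remaining members did not pass the filter. MX1, MX2, OASL, IFI27, IFI44L, IFITM1, RSAD2, DTX3L and SAMHD1 had deposited intensities of 37.1 to 105.3 over all their probes and arrays, with MX1 and DTX3L above background on 2 knockdown arrays each and the other 7 on none. Several of these, such as MX1, RSAD2 and IFI44L, are among the genes used most often as markers of an interferon response. At this brightness a level below the threshold was not measurable, and absence of the transcripts cannot be read from it.

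The rest of the pathway was described from lists of its other genes. All 12 probes of 9 interferon genes (IFNA1, IFNA2, IFNB1, IFNE, IFNK, IFNG, IFNL1, IFNL2 and IFNL3) were below background on every array. Of 8 detected receptor chains and their kinases, 5 rose and 3 did not pass. IFNGR2 and IFNAR2, chains of the interferon gamma and type I receptors, rose 2.15-fold and 1.80-fold (limma adjusted p = 9.91e-06 and 3.15e-05), and IL10RB, a chain of the type III receptor, rose 1.79-fold (limma adjusted p = 2.65e-05). IFNAR1, TYK2 and JAK2 did not pass, at 0.24, -0.06 and -0.17 on the log2 scale.

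Of 11 detected sensors and adaptors upstream of interferon, 6 rose, 1 fell and 4 did not pass. IKBKE, a kinase that activates IRF3 and IRF7, read 6.74, 6.66 and 6.63 in the controls and 8.02, 8.26 and 8.13 after knockdown, a 2.75-fold rise (limma adjusted p = 7.41e-07). STING1, the adaptor of cytosolic DNA sensing, and TANK, a scaffold of these kinases, rose 1.99-fold and 1.90-fold (limma adjusted p = 1.44e-05 and 1.63e-05). CGAS, the DNA sensor that signals to STING1, read 6.75, 6.51 and 6.71 against 6.03, 5.75 and 5.73. It was detected on all control arrays and on none of the knockdown arrays, a fall of at least 1.43-fold (limma adjusted p = 0.000156). TRIM25, MAVS, TBK1 and TICAM1 lay between -0.28 and 0.16 and did not pass.

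Of 9 detected genes listed for feedback and restraint, 5 rose, 1 fell and 3 did not pass. IRF2BP2, a corepressor that binds IRF2, rose 2.33-fold (limma adjusted p = 2.5e-06). UBE2L6, which is the conjugating enzyme for ISG15 rather than an inhibitor, rose 2.19-fold (limma adjusted p = 4.94e-06), and SOCS1, an inhibitor of JAK kinases, rose 1.72-fold (limma adjusted p = 7.05e-05). PTPN11, a tyrosine phosphatase, fell 1.64-fold (log2 change -0.71, limma adjusted p = 0.000492). These counts stand beside the 27.2% and 27.3% of all tested genes that rose and fell.

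**Figure D4:**
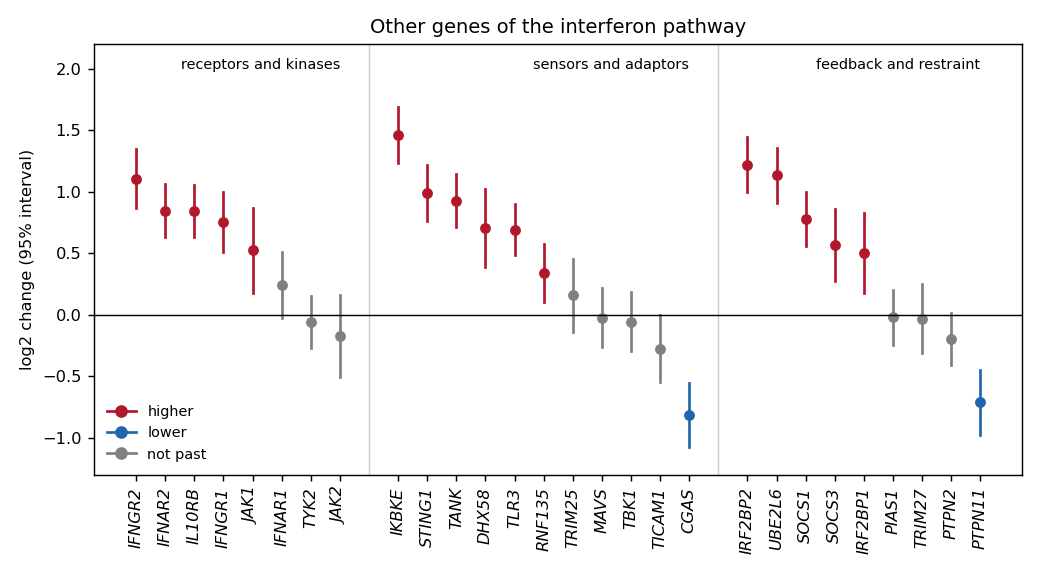
Log2 change, knockdown minus control, with 95% intervals from the limma fit, for the detected genes of 3 lists of other pathway genes. IKBKE is highest at 1.46 and CGAS lowest at -0.82, and 10 of the 28 genes did not pass. CGAS and TLR3, below detection in a whole group, are drawn at their fitted changes, which are not bounds.

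Some leukocyte markers were higher in the same arrays. Of 7 with a probe, PTPRC, CD3E, LYZ and ITGAM were below background on every array, CD68 did not pass, and CD74 and CD14 rose 5.98-fold and 3.21-fold (limma adjusted p = 2.54e-08 and 4.4e-07). The 7 summed to deposited intensities of 4772 to 5696 on control arrays and 7723 to 8760 on knockdown arrays, with CD74, which is itself inducible by interferon gamma, among them. Their part in the rise of the interferon-stimulated genes was not tested.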

How the data were processed

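Per the labels' protocols, total RNA was amplified and labelled with biotin, and the submitters' processing notes name BeadStudio. The deposited intensity values are linear, not normalised, 1 per probe and array, and come with no control probes or detection p-values. The authors also deposited processed log2 values, which served as an alternative. Set against the arrays, 99.9% matched the quantile-normalised log2 intensity to within 0.1, so they are not centred by gene. All columns have a median of 6.12.

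Analysis used limma 3.58.1 under R 4.3.3. The planned neqc needs control probes, so normexp (saddle-point method, offset 16) was fitted to each array's own probes, followed by log2 and quantile normalisation. Background was taken as the mode of an array's log2 density (bandwidth 0.05) with the values below it mirrored, and a probe was detected above the value that a share of 0.05 of this background exceeds. Probes detected on at least 3 arrays were tested with lmFit and eBayes, two-sided, no covariate, adjusted over 16091 probes. A gene stands by its brightest tested probe. A gene below detection in a group has a fold bound against the higher of its value and the lowest detected value on each array. Names came from the platform annotation, which gives 30113 of 47231 probes a single symbol, and were brought up to date through gene identifiers. In simulated data for this comparison (22285 probes), 2-fold rises were recovered in 100% and 1.5-fold rises in 88.2% of 34 probes each. The same simulation gave 22 false calls. The changed probes were drawn only from tested probes whose control signal, less background, exceeded the background. The recovery therefore does not cover members near background, and it was not split by brightness.

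The members, gene lists and tests were chosen with earlier results of these data known. Array values are given for the 14 largest changes past the threshold, every member that fell, the IRFs, RIGI, IFIH1, EIF2AK2 and ADAR. Outside that rule, and chosen after their values were seen, they are given for OAS1, OAS3, ISG15 and HERC5. Also outside it are MX1 and DTX3L, given as deposited intensities, and YAP1, IKBKE and CGAS, which are not members. Up to 3 genes per list and direction are named, with others named after their values were seen. Alternatives were background correction, normalisation, detection filter, probe choice, variance model, replicate block and leaving out each array. The number of arrays limits the precision. A planned comparison of IFITM protein sequences was not run.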

Additional observations from a re-analysis of the deposited data

How the results depend on the processing

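Of the 26 members that rose, 22 were past the threshold in the same direction in each of the 15 alternatives that tested them (some were not tested where detection on all arrays was required), and the exceptions were IRF3, IFITM2, PARP14 and TRIM21. The count of rising members ran from 21 of 26 (detected on all 6 arrays) to 27 of 33 (probes of a gene averaged), with 22 of 33 under median scaling and 24 to 26 when an array was left out. In the same order, the counts over all tested genes were 2269 of 8240, 2828 of 9802, 1446 of 9802 and 2315 to 2599 of 9802. The count of falling members was 0 with no detection filter, 0 with the replicate block and 0 to 1 without an array. In the same order, 2064 of 20046, 2525 of 9802 and 2309 to 2530 of 9802 genes fell. The median member change was 0.62 with no background correction, 0.56 with an offset of 50, 0.60 under median scaling, with the authors' processed values and with no filter. Under median scaling 1446 genes in all rose, so that 36.8% of calls were rises in place of 49.9%, and the median of all genes moved to -0.106. Of the pathway lists, rising sensors numbered 3 and falling ones 0 when detection on all arrays was required, because 7 in place of 11 were tested. Falling genes numbered 1 to 2 among sensors and 0 to 1 among receptors and kinases without an array, and 2 among the feedback genes with probes of a gene averaged. ADAR passed with the mean of its probes (log2 change 0.33, adjusted p = 0.0195) and XAF1 without knockdown replicate 1 (0.35, 0.0386). The cause of the other shifts was not tested.

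The labels do not say whether replicate numbers pair the samples. Deviations of same-numbered arrays correlated at -0.174, -0.136 and -0.0170, and no array correlated best with its own number. With so few arrays this cannot exclude a shared culture or day. With the replicate block 25 members rose, where 2534 of all 9802 tested genes did, and TRIM21 and EIF2AK2 no longer passed. Signal near background limits 9 members, which are dim on these arrays.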

Other observations

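MX1, a GTPase that blocks virus replication, and DTX3L, the partner of PARP9, were too dim to test. The MX1 probe had deposited intensities of 98.1, 63.5 and 75.9 in the controls and 105.3, 96.2 and 85.9 after knockdown, above background on knockdown arrays 1 and 3 alone. The DTX3L probe read 94.2, 78.7 and 57.4 against 90.95, 87.7 and 96.2, above background on the same 2 arrays. Thresholds differed between arrays, so DTX3L was below background at 94.2 on control array 1 and above it at 90.95 on knockdown array 1. No size of change is stated for either gene, although MX1 is among the 25 members counted as higher with no filter.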
